A study of Homo sapiens with 20 samples.

Results

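The integrated stress response and upstream open reading frame (uORF) genes described here are 10 named genes among the 19029 with counts. They are ATF4 (ENSG00000128272), ATF5 (ENSG00000169136), ATF3 (ENSG00000162772), DDIT3 (ENSG00000175197), PPP1R15A (ENSG00000087074), PPP1R15B (ENSG00000158615), DDIT4 (ENSG00000168209), CHAC1 (ENSG00000128965), TRIB3 (ENSG00000101255) and ASNS (ENSG00000070669). They were chosen by name, with no measured value in the rule, but with earlier results of these data known. All 10 were found in the deposited tables. The cells were HEK 293T, a transformed human embryonic kidney line, labelled WT in every group. For 1 h they received either the solvent DMSO or i14G1-12 at 5 µM, a compound that the series title places with inhibition of eIF1-eIF4G1. Crosslinked lysates were digested with RNase, fractionated by ultracentrifugation and used for immunoprecipitation (IP) of eIF3, of eIF4G1, or through an HA tag of eIF1 and of eIF2a, and the mRNA footprints recovered were sequenced. Selective translation complex profiling of this kind samples initiating small ribosomal subunits that carry a chosen factor. The 8 groups were DMSO and i14G1-12 for each of the 4 IPs, each with 3 libraries in the eIF1 and eIF4G1 IPs and 2 in the eIF2a and eIF3 IPs. As models these groups are limited to 1 cell line and 1 dose and time.

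In the integrated stress response, kinases phosphorylate eIF2, general initiation slows, and mRNAs with regulatory uORFs keep or gain translation at their main reading frame. ATF4 is the central transcription factor of the response and is itself under uORF control. Its targets include other transcription factors, regulators of metabolism and PPP1R15A, which directs protein phosphatase 1 to eIF2 and so closes a feedback loop.

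A value in these data is the share of an immunoprecipitate's counts that a gene held. No input library was analysed here, so more mRNA and more complexes per mRNA cannot be told apart, nor can fewer cells and less RNA per cell. Counts were summed over 1 sequence per gene, so footprints on a uORF and at the main start codon cannot be told apart either. Levels are given as CPM, the usual count scaled to library size, after TMM scaling of all 20 libraries together, and a gene was called at an adjusted p under 0.05.

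Library totals ran from 10033 counts (the eIF2a DMSO 2 library) to 1161512, and 118 genes reached 10 counts in that shallowest library. The eIF3 DMSO 2 library held 59179 counts, and the eIF3 libraries numbered 2 deviated together from their groups over genes (r = 0.50). A count of 0 allows 3 counts, which is 2.61 to 155 CPM depending on the library. The 10 genes together held 0.109% to 0.2999% of counts in the DMSO libraries and 0.136% to 0.473% in the i14G1-12 libraries. ATF4 alone made up 60.3% to 84.2% of those counts. ASNS, the asparagine synthetase and a textbook ATF4 target, had 1 count over all 20 libraries, with 19 of them at 0, so it entered no test. Whether its footprints were absent or were lost in mapping or counting was not tested. The remaining 9 passed the filter on low counts in the eIF1, the eIF4G1 and the 20-library fits, 8 passed in eIF3 (not ATF5) and 4 in eIF2a (ATF4, ATF3, PPP1R15B and DDIT4).

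Several of these genes are known to be transcribed through a C/EBP-ATF composite element, the site that ATF4 binds with a C/EBP partner. The matches are shown as a description of sequence. The genes were chosen as members of this response, so a share above that of all promoters is no test. RefSeq promoters (250 bases before to 50 after an annotated start, GRCh38.p14) matched all 10 genes, and TGATGNAA was searched on both strands. The motif was found in 4 of the 10 genes, in 4 of their 18 promoters. It was held by 1270 of all 35116 promoters (3.62%) and by 1217 of 27305 genes (4.46%). Each line gives 30 bases on the gene's own strand, with the motif in capitals.
ATF3: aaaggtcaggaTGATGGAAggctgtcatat
PPP1R15B: cccgccccggcTGATGCAAcctcacgctgc
ASNS: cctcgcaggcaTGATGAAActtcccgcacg
CHAC1: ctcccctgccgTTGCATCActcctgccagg
The ATF3 stretch lies at chr1:212565205-212565234 on the plus strand and that of PPP1R15B at chr1:204412026-204412055 on the minus strand. The ASNS stretch lies at chr7:97872458-97872487 on the minus strand. The CHAC1 stretch lies at chr15:40953251-40953280 on the plus strand, with the motif read on the opposite strand. Counted from an annotated start, the motif begins at position −191 in ATF3, −227 in PPP1R15B, −68 in ASNS and −209 in CHAC1. The ASNS stretch lies inside the span of the gene, before one of its later starts, and the other stretches lie outside the gene. The footprint counts hold no measurement of a promoter. Gene positions given with the results are RefSeq's on the same build.

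ATF3 footprints were more abundant with i14G1-12 than with DMSO, in the eIF4G1 IP and on average over the IPs. ATF3 (chr1:212565407-212620777) encodes a stress-induced bZIP transcription factor downstream of ATF4. In the eIF4G1 IP it was at 79.2, 71.1 and 58.5 CPM in the DMSO libraries and at 376, 224 and 274 CPM in the i14G1-12 libraries. All 3 treated libraries lay above all 3 controls. The log2 fold change was 2.03 (SE 0.33, edgeR adjusted p = 0.00321), and this was the only member called in that IP. The call was lost without eIF4G1 DMSO library 1 (log2 2.14, edgeR adjusted p = 0.0664) or DMSO library 3 (1.95, edgeR adjusted p = 0.0785).

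In the eIF1 IP the ATF3 level was 190.3, 143 and 151 CPM with DMSO and 311, 231 and 301 CPM with i14G1-12. These groups did not overlap either, but the log2 difference of 0.77 (SE 0.23) did not pass the test (edgeR adjusted p = 0.122). It passed by the DESeq2 Wald test (adjusted p = 0.0342). The DMSO level here was already above every eIF4G1 DMSO library.

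The eIF2a and eIF3 libraries gave ATF3 few DMSO counts. In eIF3 it was at 63.9 CPM (41 counts) and 13.6 CPM (1 count) with DMSO and at 284 and 139 CPM with i14G1-12. In eIF2a it was at 21.6 CPM (6 counts) and 0 with DMSO and at 225 and 59.5 CPM with i14G1-12. The library at 0 was eIF2a DMSO 2, where 3 counts would be 155 CPM, so the lack of overlap in that IP is not shown at this depth. Neither difference was called in these fits: the log2 fold change was 2.10 in eIF3 (SE 0.71, edgeR adjusted p = 1) and 2.68 in eIF2a (SE 0.66, edgeR adjusted p = 0.220). With the replicate number as a block, ATF3 was called in eIF3, at 2.23 (edgeR adjusted p = 0.00546). The labels do not say that the numbers mark pairs.

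Averaged over the 4 IPs in 1 fit to all 20 libraries, ATF3 was higher by 1.90 on the log2 scale (SE 0.26, edgeR adjusted p = 1.42e-06). It was past the threshold in 27 of 27 alternatives, at log2 values of 1.41 to 3.45. The upper end came from leaving out eIF2a DMSO 1, which leaves only a library with 0 ATF3 counts in its group and so gives no bound. Without eIF2a DMSO 2 and both eIF3 libraries numbered 2, the value was 1.89.

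ATF4 (chr22:39520559-39522686) is the response's master regulator and had the highest level per length of the 10 genes in every library. In eIF1 it was at 2898, 1651 and 2060.0 CPM with DMSO and at 6067, 3147 and 3130.3 CPM with i14G1-12. In eIF4G1 the values were 1594, 1387 and 1836 CPM against 3549, 2689.9 and 2033 CPM. The treated libraries lay above the DMSO libraries in both IPs.

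In eIF3 the order was the same, and in eIF2a it depended on the scaling. In eIF3 it was at 1679 and 1400.0 CPM with DMSO against 2549.9 and 2014 CPM with i14G1-12, and in eIF2a at 835 and 826 CPM against 1101 and 995 CPM. The eIF2a DMSO 2 value came from 16 counts, and on total counts alone it was 1595 CPM, above the treated libraries at 1155 and 1027 CPM. The log2 difference was 0.87 in eIF1 (SE 0.26, edgeR adjusted p = 0.125), 0.78 in eIF4G1 (SE 0.27, edgeR adjusted p = 0.345), 0.51 in eIF3 (SE 0.67) and 0.24 in eIF2a (SE 0.40). None of these was called by edgeR, nor was the average of 0.64 (SE 0.19, edgeR adjusted p = 0.122). By the DESeq2 Wald test, ATF4 passed in eIF1 (adjusted p = 0.0131) and in eIF4G1 (adjusted p = 0.0173).

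Because ATF3 and ATF4 were counted in the same libraries, their ratio does not depend on the scaling. Per length of counted sequence, ATF3 was at 2.33% to 3.75% of ATF4 in the eIF4G1 DMSO libraries and at 6.08% to 9.86% in the i14G1-12 libraries. In eIF3 it was at 0.710% and 2.78% with DMSO and at 5.04% and 8.14% with the compound. In eIF1 the ranges overlapped, at 4.80% to 6.32% and 3.75% to 7.04%. These ratios are a description, with no test.

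**Figure D1:**
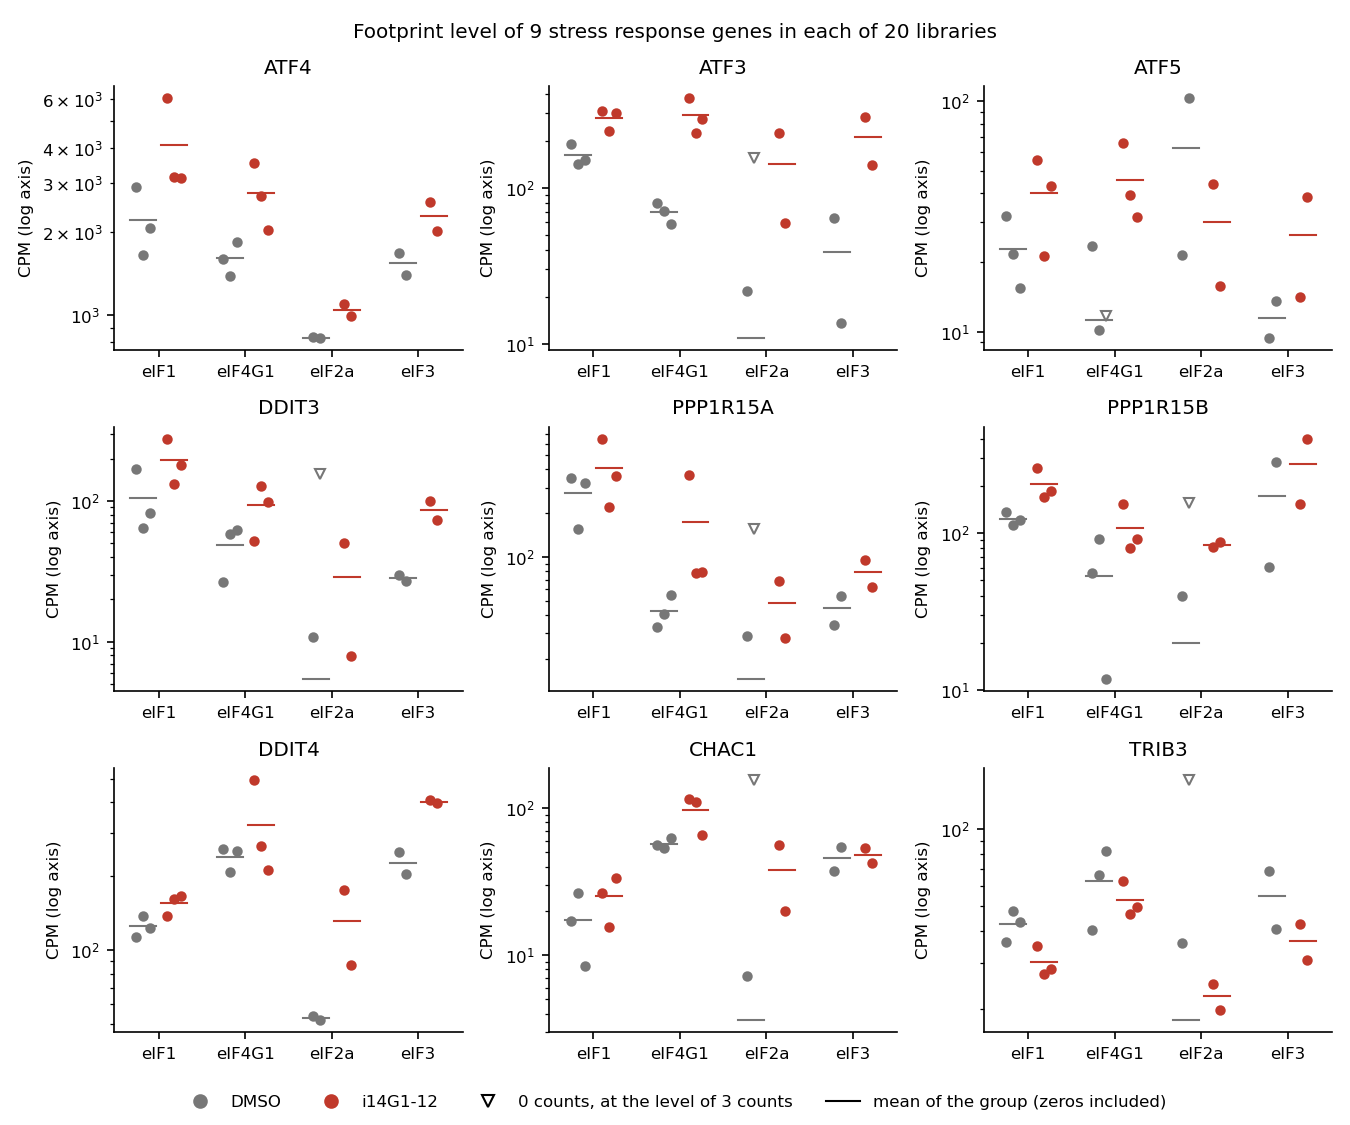
Footprint level of 9 genes in each of the 20 libraries, as CPM on a log axis, grouped by IP and treatment. Lines are group means, and open triangles mark libraries with 0 counts, drawn at the level of 3 counts. ATF3 and ATF4 are higher in every i14G1-12 library than in the DMSO libraries of the same IP in eIF1, eIF4G1 and eIF3.

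DDIT3 (chr12:57516588-57520517), which encodes the pro-apoptotic factor CHOP and carries an inhibitory uORF, had values in the same direction. It was at 169.9, 63.9 and 82.7 CPM in the eIF1 DMSO libraries and at 276, 132 and 180.2 CPM with i14G1-12. In eIF4G1 it was at 26.4, 58.4 and 62.4 CPM against 52.2, 127 and 99.2 CPM. The groups overlapped in both IPs. In eIF3 the values of 29.6 and 27.2 CPM lay below the treated 99.3 and 73.3 CPM, although the lower DMSO library held 2 counts. The log2 difference was 0.85 in eIF1 (SE 0.31), 1.03 in eIF4G1 (SE 0.44) and 1.53 in eIF3 (SE 0.68), and the average over the IPs was 1.20 (SE 0.34, edgeR adjusted p = 0.0804). None of the 4 was called. The average takes in eIF2a, where DDIT3 failed the filter, with 3 and 0 counts with DMSO and 8 and 2 with i14G1-12.

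ATF5 (chr19:49928906-49933935), a bZIP factor under uORF control like ATF4, had low counts throughout. Its eIF4G1 level was 23.6, 10.2 and 0 CPM with DMSO, and 66.1, 39.0 and 31.3 CPM with i14G1-12. The treated libraries were higher, and ATF5 passed the filter there only with their help. The library at 0 allows 11.7 CPM. The log2 difference was 1.67 (SE 0.69, edgeR adjusted p = 0.466). In eIF1 ATF5 was at 31.7, 21.7 and 15.4 CPM against 55.7, 21.4 and 42.7 CPM, with overlap. The log2 difference there was 0.72 (SE 0.47, edgeR adjusted p = 0.561). ATF5 failed the filter in eIF3, with means of 11.5 CPM (DMSO, 7 counts) and 26.4 CPM (i14G1-12, 14 counts). In eIF2a, where it also failed, the direction was opposite, at 62.4 CPM (8 counts) and 29.8 CPM (11 counts). The average over the 4 IPs was 0.89 (SE 0.41, edgeR adjusted p = 0.418).

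The phosphatase subunits differed in how far single libraries carried their values. PPP1R15A (GADD34, chr19:48872421-48876058) is the stress-induced subunit and PPP1R15B (CReP, chr1:204395826-204411817) the constitutive one. In eIF4G1, PPP1R15A was at 33.0, 40.7 and 54.6 CPM with DMSO and at 369, 78.0 and 78.3 CPM with i14G1-12. All treated libraries were above the controls, but 1 of them stood far above the other two. The log2 difference of 2.04 (SE 0.51, edgeR adjusted p = 0.0918) was 0.94 without i14G1-12 library 1 (edgeR adjusted p = 0.727).

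In the eIF1 IP, PPP1R15A was at 351, 156 and 325 CPM with DMSO against 648, 222 and 360.5 CPM, and the groups overlapped. In eIF3 it was at 34.3 and 54.4 CPM (the latter from 4 counts) against 95.8 and 61.7 CPM. The log2 differences were 0.52 (SE 0.30) and 0.93 (SE 0.68), and the average over the 4 IPs was 1.10 (SE 0.32, edgeR adjusted p = 0.0928). That average takes in eIF2a, where PPP1R15A failed the filter, with 8 and 0 counts with DMSO and 11 and 7 with i14G1-12.

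PPP1R15B was at 137, 113 and 121 CPM in the eIF1 DMSO libraries and at 261, 169 and 185 CPM with i14G1-12, without overlap. In eIF4G1 it was at 55.6, 91.5 and 11.7 CPM (the last from 3 counts) against 153, 80.6 and 91.3 CPM, with overlap. In eIF3 the second library of each group, 285 and 397 CPM, was above the first, 60.8 and 152 CPM. PPP1R15B thus had a log2 difference of 0.69 in eIF1 (SE 0.24, edgeR adjusted p = 0.188), and the average was 0.98 (SE 0.28, edgeR adjusted p = 0.0789).

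In eIF2a, PPP1R15B was at 39.6 CPM and 0 with DMSO and at 81.3 and 87.2 CPM with i14G1-12, again with the shallow library at 0. Its log2 difference there was 1.20 (SE 0.59, edgeR adjusted p = 1).

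Among the targets further down, DDIT4 (REDD1, chr10:72273924-72276036), which restrains mTORC1, was at 113, 138 and 123 CPM in eIF1 with DMSO and at 138, 161 and 166 CPM with i14G1-12. In eIF4G1 it was at 259, 208 and 253 CPM against 494, 265 and 211 CPM. There the i14G1-12 library 1 stood above the rest, and the groups overlapped. In eIF3, 251 and 204 CPM lay below 408 and 397 CPM, and in eIF2a 54.0 and 51.6 CPM (the latter from 1 count) below 175 and 87.2 CPM. On total counts alone the eIF2a groups overlapped. DDIT4 thus had a log2 difference of 0.29 in eIF1 (SE 0.24), 0.41 in eIF4G1 (SE 0.32; −0.02 without i14G1-12 library 1), 0.76 in eIF3 (SE 0.59), 1.20 in eIF2a (SE 0.55) and 0.69 on average (SE 0.22, edgeR adjusted p = 0.146).

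CHAC1 (chr15:40953471-40956512) encodes a glutathione-degrading enzyme. In eIF4G1 its DMSO libraries, at 55.6, 53.4 and 62.4 CPM, lay below the i14G1-12 libraries at 115, 109 and 65.2 CPM. In eIF1 it was at 16.99, 26.3 and 8.41 CPM against 26.4, 15.5 and 33.2 CPM, with overlap. The eIF3 values, 37.4 and 54.4 CPM against 53.2 and 42.4 CPM, overlapped too. The log2 difference was 0.47 in eIF1 (SE 0.55), 0.73 in eIF4G1 (SE 0.38) and 0.13 in eIF3 (SE 0.71). In eIF2a, where CHAC1 failed the filter, it had 2 and 0 counts with DMSO and 9 and 5 with i14G1-12. The average log2 difference was 0.95 (SE 0.35, edgeR adjusted p = 0.258). That average takes in eIF2a and lies above the value in each IP where CHAC1 was tested.

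TRIB3 (chr20:380760-397559), a pseudokinase that restrains ATF4 and DDIT3 activity, had values in the other direction. In eIF1 it was at 36.2, 47.9 and 43.5 CPM with DMSO and at 35.2, 27.2 and 28.5 CPM with i14G1-12, so that every treated library was below every control. In eIF4G1 it was at 40.5, 66.1 and 81.8 CPM against 62.6, 46.8 and 49.6 CPM, with overlap. In eIF3 it was at 68.6 and 40.8 CPM against 42.6 and 30.9 CPM, also with overlap. For TRIB3 the log2 difference was −0.53 in eIF1 (SE 0.40), −0.20 in eIF4G1 (SE 0.43), −0.72 in eIF3 (SE 0.69) and −0.49 on average (SE 0.29, edgeR adjusted p = 0.610). The sign was not firm: the average was 1.24 without eIF2a DMSO library 1, which leaves a library with 0 TRIB3 counts, and the eIF4G1 value was 0.02 without DMSO library 3.

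Counted over the members, edgeR called 0 of 9 in eIF1, where 0.456% of all genes tested were called. An unadjusted p under 0.05 was found for 4 of these members and for 12.4% of all genes. In eIF4G1 it called 1 of 9 (0.347% of all genes), with 6 members and 8.65% of all genes at an unadjusted p under 0.05. In eIF2a it called 0 of 4 (0% of all genes), with 3 members and 1.84% of all genes below that value. In eIF3 it called 0 of 8 (0.0159% of all genes), with 2 members and 1.75% of all genes below it. DESeq2 called 2 members in eIF1, among 174 of 14981 genes with a count, 2 in eIF4G1, among 97 of 14538, and 0 in eIF2a and eIF3. In eIF2a, ATF3 and PPP1R15B had 0 counts in a DMSO library and the other members dropped out on low counts, so the 4 genes tested there are not a sample of the 10. On DMSO libraries alone, ATF3, DDIT3 and PPP1R15A would not have passed the filter in eIF3. Nor would ATF5 and PPP1R15B in eIF4G1, or ATF5 and CHAC1 in eIF1. The same holds for ATF3 and PPP1R15B in eIF2a. These members entered with the help of the i14G1-12 libraries, where their means were higher, so their p-values there are no separate support. The members were also chosen with earlier results known.

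For the average over the IPs, edgeR called 1 of 9, against 0.541% of all genes, and 8 of 9 had an unadjusted p under 0.05, against 10.2% of all genes. ATF5, which is among them, passed the filter in that fit only with the help of its i14G1-12 libraries. DDIT3, PPP1R15A and PPP1R15B each passed in 4 of 27 alternatives. The members' median log2 difference was 0.95, beside 0.04 over all genes. That median was the value of CHAC1, and the averages take in eIF2a, where only 4 of the members were tested alone. In the single IPs the members' median was 0.69 in eIF1 against 0.00 for all genes, 0.95 in eIF4G1 against −0.01 and 0.75 over the 8 genes tested in eIF3 against 0.02. A positive value was found for 8 of 9 members in eIF1, 8 of 9 in eIF4G1 and 7 of 8 in eIF3, TRIB3 being the exception each time. These counts and their sign were the same under TMM, DESeq2 size factors and total counts alone. They and the medians take in members that passed the filter only with the help of their i14G1-12 libraries. Those were ATF5 and CHAC1 in eIF1, ATF5 and PPP1R15B in eIF4G1, and ATF3, DDIT3 and PPP1R15A in eIF3. The filter favours a positive value for them, so these counts and medians are no separate support. With total counts alone the median of all genes moved to −0.13 in eIF1 and −0.16 in eIF4G1, and the members' median to 0.54 and 0.77. In eIF3, PPP1R15B and CHAC1 had negative values without DMSO library 1 (−0.14 and −0.26).

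Groups that did not overlap were counted in the same way. In eIF1, i14G1-12 libraries were all higher for 3 of 9 members (ATF4, ATF3 and PPP1R15B), against 8.90% of all genes tested, and all lower for 1 (TRIB3), against 9.09%. In eIF4G1 they were all higher for 5 of 9 (ATF4, ATF3, ATF5, PPP1R15A and CHAC1), against 7.21%, and all lower for 0, against 7.00%. In eIF3 they were all higher for 5 of 8 (ATF4, ATF3, DDIT3, PPP1R15A and DDIT4), against 13.9%, and all lower for 0, against 11.9%. In eIF2a they were all higher for 4 of 4, against 21.7%, and all lower for 0, against 7.46%. That DMSO group holds the library with 0 counts of ATF3 and PPP1R15B, 1 of DDIT4 and 16 of ATF4, so none of the 4 is shown not to overlap at this depth. On total counts alone, ATF4 and DDIT4 overlapped in eIF2a (2 of 4 members all higher, against 15.4% of all genes). In eIF3, PPP1R15A then overlapped (4 counts in the DMSO 2 library), leaving 4 of 8 all higher, against 10.4%, and TRIB3 was all lower, against 17.2%. The counts in eIF1 and eIF4G1 were the same. ATF5 in eIF4G1 passed the filter on low counts only with the help of its i14G1-12 libraries. So did ATF3, DDIT3 and PPP1R15A in eIF3, and ATF3 and PPP1R15B in eIF2a. Their place in these counts is therefore no separate support.

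**Figure D2:**
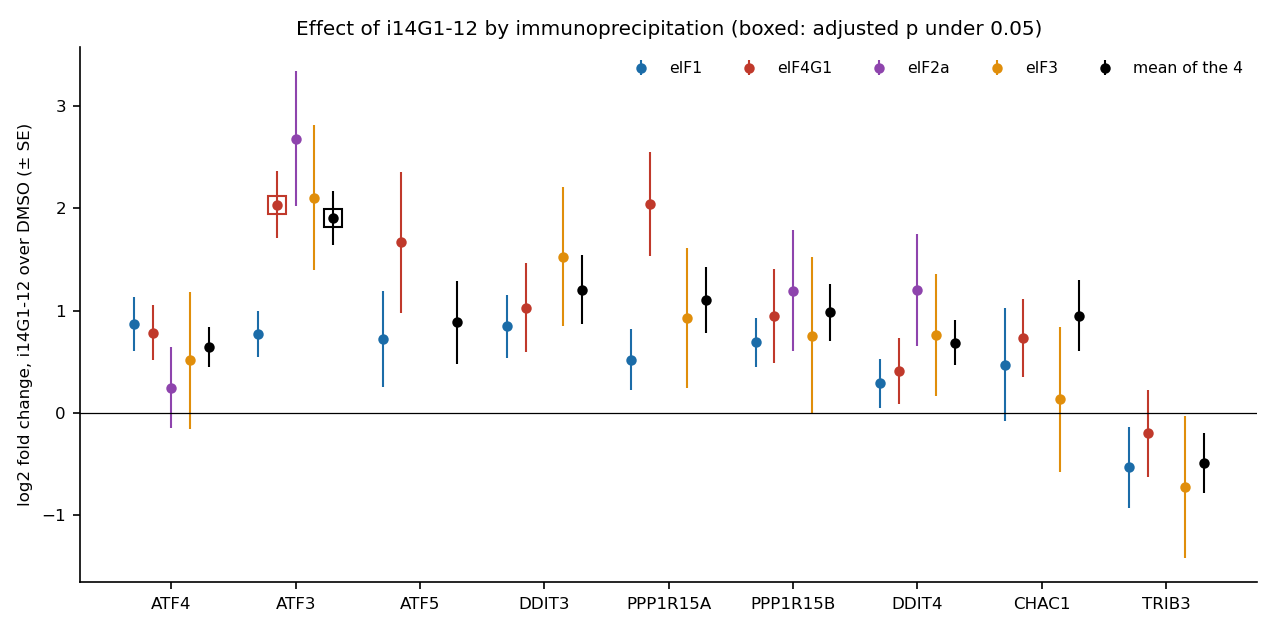
Log2 difference between i14G1-12 and DMSO with its standard error for each gene in each IP and for the average over the 4 IPs. Boxed points passed an edgeR adjusted p of 0.05: ATF3 in eIF4G1 (2.03) and ATF3 on average (1.90). TRIB3 is the gene whose points lie below 0.

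Whether the response differed between IPs was tested directly. The difference between the effects in eIF1 and in eIF4G1 was called for 0 of 9 members (0.0318% of all genes), and 2 had an unadjusted p under 0.05, against 3.15% of all genes. Those were ATF3, with a difference of −1.23 on the log2 scale (SE 0.51, edgeR adjusted p = 1), and PPP1R15A, with −1.47 (SE 0.61, edgeR adjusted p = 1), both smaller in eIF1. A joint test of any difference among the 4 IPs called 0 of 9 (0.0212% of all genes), with 1 at an unadjusted p under 0.05, against 1.80% of all genes. The ATF3 call in eIF4G1 is therefore not shown to be particular to that IP.

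Without the compound, 3 members were more abundant among the eIF1 footprints than in the mean of the other IPs. PPP1R15A was at 278 ± 106 CPM (SD, n = 3) in the eIF1 DMSO libraries, at 42.7 ± 10.9 (SD, n = 3) in eIF4G1, at 44.3 ± 14.2 (SD, n = 2) in eIF3 and at 14.4 ± 20.4 (SD, n = 2) in eIF2a. The 3 eIF1 libraries were all above the libraries of the other IPs. The log2 difference was 3.00 (SE 0.40, edgeR adjusted p = 5.93e-07), and it passed in 27 of 27 alternatives. Against eIF4G1 alone, the IP nearest in depth, it was 2.76 (edgeR adjusted p = 8.55e-05).

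ATF3 and DDIT3 were called in the same contrast, but less firmly. ATF3 was at 161 ± 25.3 CPM (SD, n = 3) in eIF1 and 69.6 ± 10.4 (SD, n = 3) in eIF4G1, and its log2 difference from the mean of the others was 1.94 (SE 0.36, edgeR adjusted p = 0.000248). DDIT3 was at 106 ± 56.5 CPM (SD, n = 3) and 49.1 ± 19.7 (SD, n = 3), with 2.14 (SE 0.42, edgeR adjusted p = 0.000612). Against eIF4G1 alone neither passed, at 1.18 for ATF3 (edgeR adjusted p = 0.0849) and 1.21 for DDIT3 (edgeR adjusted p = 0.138). DDIT3 also missed the threshold without eIF1 DMSO library a (1.61, edgeR adjusted p = 0.0731) and without eIF2a DMSO library 1 (3.91, edgeR adjusted p = 0.0750). Without that library the value was 5.23 for PPP1R15A and 4.03 for ATF3, both called. These 3 values set the eIF1 level partly against a library with 0 counts of the gene, so they are no bounds.

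In all, edgeR called 3 of 9 members in eIF1 DMSO, against 4.08% of all genes. It called 0 of 9 in eIF4G1 (0.117% of all genes), 0 of 9 in eIF2a (0.0530%) and 0 of 9 in eIF3 (0.0955%), with 2, 7 and 2 members at an unadjusted p under 0.05, against 5.18%, 3.68% and 5.79% of all genes. DDIT4 was at 240.3 ± 27.8 CPM (SD, n = 3) in eIF4G1 and 125 ± 12.5 (SD, n = 3) in eIF1, and CHAC1 at 57.1 ± 4.68 (SD, n = 3) and 17.2 ± 8.92 (SD, n = 3). Their differences from the mean of the other IPs in eIF4G1 were the highest of the 9, at 1.72 for CHAC1 (SE 0.47, edgeR adjusted p = 0.277) and 1.05 for DDIT4 (SE 0.31, edgeR adjusted p = 0.427). Set against eIF4G1 alone, CHAC1 was lower in eIF1, at −1.69 (edgeR adjusted p = 0.0328), the opposite side to PPP1R15A. Of the 9 members, 8 had a negative value in eIF2a, the IP with the shallowest library, as did 59.0% of all genes, whose median was −0.13. The factor, the tag, the antibody and the time of each IP cannot be told apart in these contrasts.

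**Figure D3:**
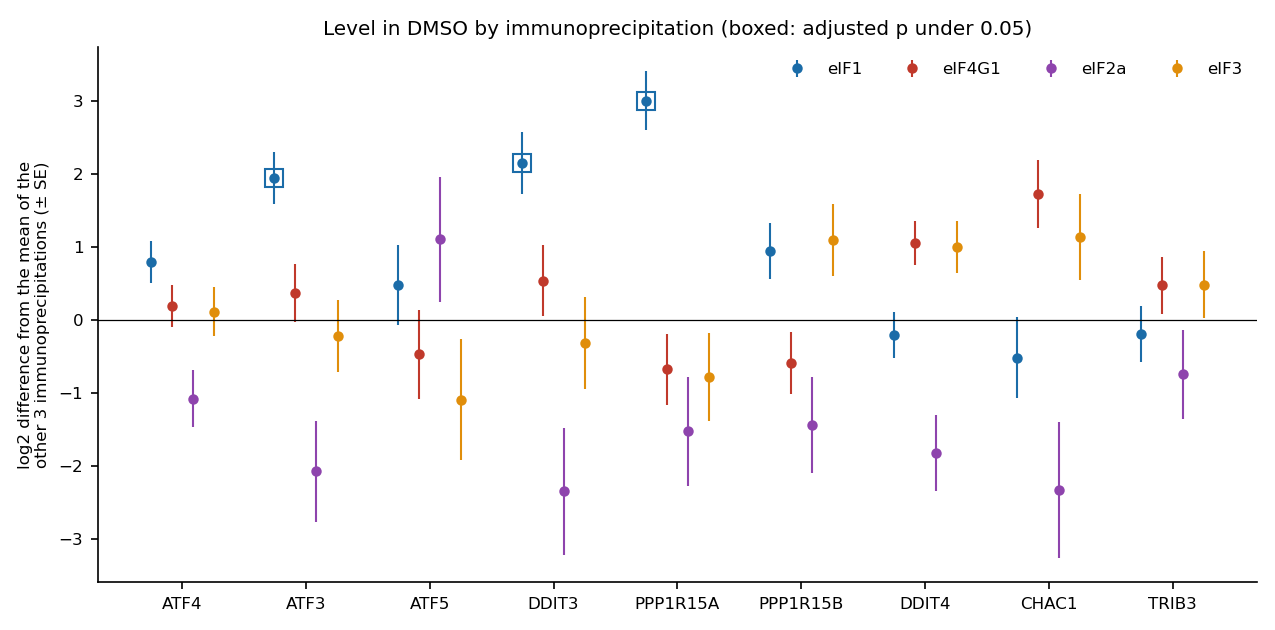
Log2 difference of each gene's DMSO level in one IP from the mean of the other 3, with its standard error. Boxed points passed an edgeR adjusted p of 0.05, and they are PPP1R15A (3.00), DDIT3 (2.14) and ATF3 (1.94) in eIF1.

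Levels between genes were compared per kilobase of counted sequence (CPM per kb), within a group. ATF4 was first in all 8 groups, between the 99.3 and 99.8 percentiles of all genes. In the eIF1 DMSO libraries it was at 1552 ± 448 CPM per kb (SD, n = 3), 13.1 times the next member. In the eIF4G1 DMSO libraries it was at 1132 ± 158 (SD, n = 3), 8.21 times the next. Its libraries overlapped with those of no other member in any group.

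Below ATF4 the order differed between the IPs. With DMSO in eIF1, PPP1R15A (118 CPM per kb), DDIT3 (117), ATF3 (83.2) and DDIT4 (71.6) followed, and neighbours in this run overlapped between libraries. PPP1R15B (23.5), TRIB3 (18.1), ATF5 (11.4) and CHAC1 (11.3) came last, with no overlap between DDIT4 and PPP1R15B or between PPP1R15B and TRIB3. In eIF4G1, DDIT4 was second at 138 CPM per kb, above DDIT3 (54.3) without overlap. The rest ran through CHAC1 (37.6), ATF3 (35.9), TRIB3 (26.7), PPP1R15A (18.2), PPP1R15B (10.1) and ATF5 (5.60), with each neighbour overlapping the next. In eIF3, DDIT4 (130.4) was again second, without overlap with PPP1R15B (32.9).

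With i14G1-12, ATF3 moved up the order in eIF4G1, from 35.9 CPM per kb, below DDIT3 and CHAC1, to 150.1, above both and next after DDIT4 at 186. In that group it overlapped with DDIT4 and with DDIT3 (103). In eIF3 it went from 19.98 to 109 CPM per kb, again next after DDIT4 (231), and these 2 did not overlap. PPP1R15A was above PPP1R15B per length in all 6 eIF1 libraries, at ratios of 2.93 to 6.04. In the 6 eIF4G1 libraries the ratio ran from 0.995 to 10.4, the highest in a library with 3 PPP1R15B counts.

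**Figure D4:**
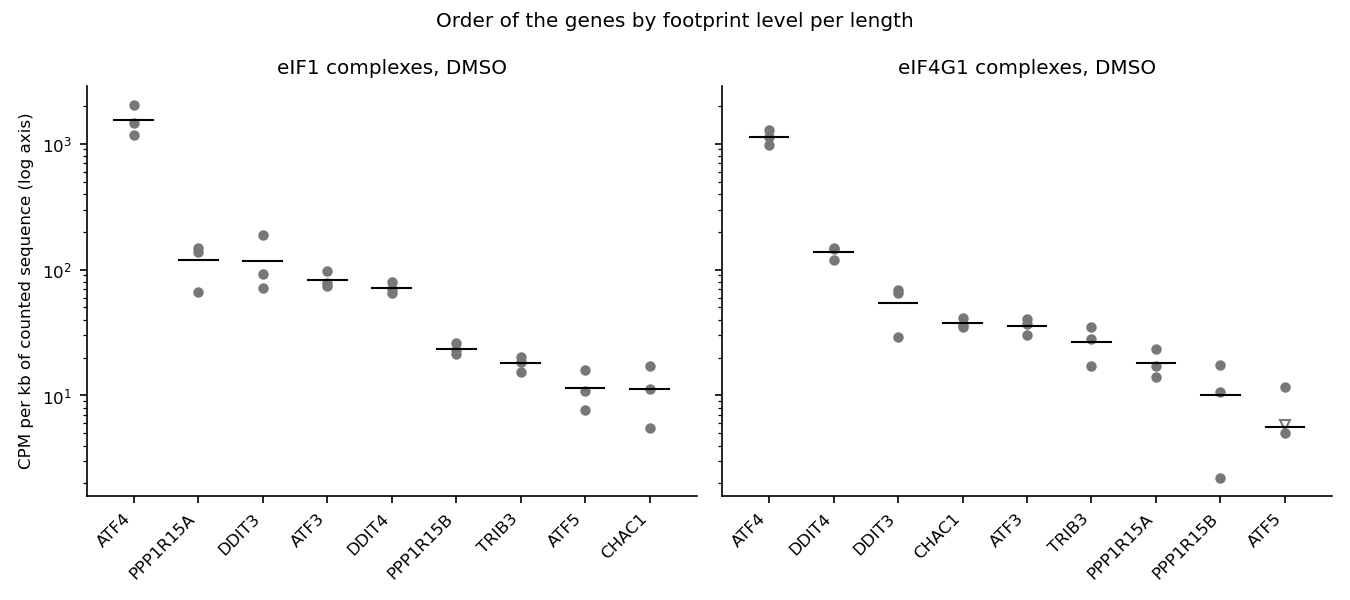
DMSO footprint level per kilobase of counted sequence on a log axis, for each library of the eIF1 and eIF4G1 IPs, with genes sorted by level. ATF4 stands apart in both, PPP1R15A is second in eIF1 and DDIT4 is second in eIF4G1.

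The genes whose levels followed ATF4 and ATF3 most closely were found by Pearson's r of log2 CPM over the 20 libraries, after taking out each IP's mean, among 9903 genes. For ATF4 they were ENSG00000146223 (r = 0.94) and ENSG00000197894 (r = 0.91), and for ATF3 they were ENSG00000006652 and ENSG00000275052 (r = 0.93 for both). The points share libraries, depth and treatment, and these correlations are a description.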

How the data were processed

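Raw read counts per gene were deposited by the authors in 4 tables, 1 per IP, in the layout of featureCounts. The submitters' processing notes name cutadapt and Trimmomatic, the aligners Bowtie and HISAT2, and featureCounts, without versions, and the build hg38. Per the file headers each gene has 1 counted sequence, and reads that match several genes may be split or lost. Columns were matched to samples by name. The eIF1 columns carry no label number, so those libraries are called a, b and c. The labels do not state that replicates were separate cultures: p-values reflect only how these libraries vary, and that variation may be technical. Replicate pairs differed by more than counting noise, and none was a duplicate.

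Treatment effects were fitted per IP with edgeR 4.0.16 (R 4.3.3; filterByExpr with a minimum count of 10, TMM, quasi-likelihood test), and all other contrasts in 1 fit to 20 libraries. The edgeR p-values were adjusted by Benjamini-Hochberg over all genes tested. DESeq2 adjusted only over the genes kept by its default filter on mean counts. Its numbers of genes called are set beside all genes with a count, not beside those kept. The SE is the log2 change divided by the square root of F. Alternatives were DESeq2 1.42.0, other scalings, filters and prior counts, a replicate block and leaving out each library. The fits were tested on simulated counts. A 2-fold change was called for 17.6% of changed genes in eIF1, 19.2% in eIF4G1, 0% in eIF2a, 1.61% in eIF3 and 57.9% on average. For a 4-fold change the shares were 77.2%, 76.5%, 10.8%, 43.1% and 96.9%. False calls numbered 0 to 10. A member that was not called is thus not shown to be unchanged. Each of the 10 members is described by name. In the contrasts between IPs, and for some members in single IPs, values are given for a part of them only. The members and lists were chosen with earlier results of these data known. The tables name no symbols and 0 of 19029 IDs matched the reference table, so the pathway lists and cell type markers were not run, and the identity of the cells was not checked. Gene positions and promoters are those of RefSeq GRCh38.p14, matched by symbol.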

Additional observations from a re-analysis of the deposited data

How the results depend on the processing

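Of 1772 values of single members under the alternatives, 1706 kept their direction and their side of the threshold, 26 came to pass it, 6 ceased to, and 34 changed sign without being called. Of 235 counts of members called, 213 stayed within 1.5 times. With no filter on low counts, 1 member was called in eIF1 (ATF4), 2 in eIF4G1 (PPP1R15A and ATF3) and 3 on average. DESeq2 called 2 in eIF1 and 2 in eIF4G1. With 1 fit to all 20 libraries, 2 were called in eIF4G1. The mean of eIF1 and eIF4G1 only gave 2. Leaving out 1 library at a time gave 0 to 1 called in eIF1, 0 to 2 in eIF4G1, 0 to 1 in eIF2a (ATF3, without eIF2a DMSO 2, which leaves 1 DMSO library that is assumed to vary like the treated ones) and 1 to 3 on average. With the replicate block, 1 was called in eIF3 (ATF3, log2 2.23, edgeR adjusted p = 0.00546), 1 in eIF4G1 and 0 in eIF2a. Same-numbered libraries correlated in their deviations at 0.02, −0.10 and −0.17 in eIF4G1, −0.02 in eIF2a and 0.50 in eIF3. The numbers were not taken as pairs because the labels do not state pairs. In eIF3 the deviations were shared, so whether the block is the better fit there is not settled. Genes called over the whole table were 38 in eIF1, 25 in eIF4G1, 1 in eIF3 and 51 on average. Without the filter they were 129, 68, 2 and 81, and with DESeq2 174, 97 and 3 in the single IPs. A minimum of 30 counts gave 70 and 42 in eIF1 and eIF4G1, and 1 fit to all libraries 4 in eIF1 and 5 in eIF3. The block gave 24 in eIF3, total counts alone 29 on average, and the mean of eIF1 and eIF4G1 112. The 385 genes called in eIF1 DMSO were 205 with total counts and 194 against eIF4G1 alone. Leaving out 1 library gave 2 to 65 genes in eIF1, 4 to 46 in eIF4G1, 0 to 13 in eIF2a, 0 to 3 in eIF3, 19 to 104 on average and 82 to 485 in eIF1 DMSO. The smaller contrasts between IPs (2 to 11 genes) ran from 0 to 41 over the alternatives. The runs on 17 libraries, on eIF1 and eIF4G1 only and of eIF1 against eIF4G1, and the overlap of groups on total counts, were chosen after seeing the data. In eIF2a, 4 of the 10 members had the counts to be tested.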
